A study of Mus musculus with 48 samples.

Results

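*Avp* and *Oxt*, the genes for the vasopressin and oxytocin precursors, were followed as 2 rows of a table of 16510 genes. The table held counts of unique molecular identifiers (UMIs, tags that mark single captured mRNA molecules) in 14121 single cells of the mouse hypothalamus at E18.5, late in gestation. The cells came from 48 ddSEQ libraries of 15 embryos. The embryo of a library was read from the library's name, and most embryos had several libraries. Each hypothalamus was divided before dissociation, and whether a library holds a single piece is not stated. Both were picked by name and not by a threshold on a measured value.

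The 6 control embryos were Eed fl/fl and carried the floxed allele without Cre, and the 9 *Eed-cKO* embryos were Eed fl/fl; Sox1-Cre/+, on a mixed genetic background. *Eed* encodes a core subunit of polycomb repressor complex 2, which methylates lysine 27 of histone H3, and Cre sat in the *Sox1* locus, so that recombination took place across the central nervous system and the cells of other origin were not targeted. The leading number of the library names took 4 values in controls and 6 in *Eed-cKO* embryos, and 0 were shared. The labels do not say what it marks; if it is the litter, litter and genotype cannot be told apart. The comparison of genotypes asked how *Avp* and *Oxt* fared in a hypothalamus that developed without *Eed*.

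Vasopressin and oxytocin are nonapeptide hormones that are cut from larger precursors, each of which also carries a neurophysin, the protein that binds the hormone inside the secretory granule. Magnocellular neurons of the paraventricular and supraoptic nuclei send the peptides to the posterior pituitary, from where vasopressin acts on water balance and oxytocin on milk ejection and parturition. Vasopressin is also made by parvocellular neurons and by clock neurons of the suprachiasmatic nucleus. The 2 genes are neighbours that arose by duplication, and a single magnocellular neuron mostly makes one of them at a high level.

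In the GENCODE annotation of GRCm38, *Oxt* (ENSMUSG00000027301.7, chr2:130576173-130577054, plus strand) and *Avp* (ENSMUSG00000037727.6, chr2:130580620-130582554, minus strand) lay tail to tail, 3565 bases apart, with no annotated gene between them. Each transcript had 3 exons, with 577 bases for *Avp* and 537 for *Oxt*. The codons of the 2 nonapeptides are shown because they are the part that separates the hormones; capitals mark the 5 bases, in 3 of 9 codons, that differ, and the codons are 24 to 32 of *Avp* and 20 to 28 of *Oxt*, both in exon 1.
Avp: tgctacTtccagaactgcccAAGAggc
Oxt: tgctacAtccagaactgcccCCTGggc

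The coding part of exon 2, which holds most of the neurophysin, was identical at 193 of 202 bases (95.5%), against 71.7% in exon 1 and 73.6% in exon 3. The value for exon 3 covers only 53 aligned bases, since *Avp* has 170 coding bases there and *Oxt* 53. The longest run that the transcripts shared is shown because a read inside it cannot be given to 1 of the genes. It was 127 bases long and covered bases 144 to 270 of *Avp* and 156 to 282 of *Oxt*.
Shared run: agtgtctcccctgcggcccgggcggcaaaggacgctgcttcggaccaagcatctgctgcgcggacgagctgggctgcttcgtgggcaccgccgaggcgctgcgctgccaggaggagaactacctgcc

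The libraries were read from the 3′ part of the transcripts, and this run ended 307 bases before the 3′ end of *Avp* and 255 bases before that of *Oxt*. The last 100 bases of the transcripts were identical at only 40.2% of aligned positions. How the reads were split between the genes was not tested.

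The windows of 250 bases upstream of the RefSeq start (GRCm38.p6) are printed because both transcripts differed between the genotypes. Capitals mark matches, on either strand, to the motifs searched. These were the E-boxes CACGTG and CAGGTG. Another was TGACGTCA, the cyclic AMP response element, with its shorter form TGACGT, which lies within it. The nuclear receptor half-site was AGGTCA. The TATA-like boxes were TATAAA and CATAAA.
Avp, chr2:130582589-130582838, minus strand: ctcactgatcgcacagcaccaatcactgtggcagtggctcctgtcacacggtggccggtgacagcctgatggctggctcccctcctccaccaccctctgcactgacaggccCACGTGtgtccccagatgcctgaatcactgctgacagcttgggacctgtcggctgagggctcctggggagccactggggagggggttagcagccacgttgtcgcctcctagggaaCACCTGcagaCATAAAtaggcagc
Oxt, chr2:130575919-130576168, plus strand: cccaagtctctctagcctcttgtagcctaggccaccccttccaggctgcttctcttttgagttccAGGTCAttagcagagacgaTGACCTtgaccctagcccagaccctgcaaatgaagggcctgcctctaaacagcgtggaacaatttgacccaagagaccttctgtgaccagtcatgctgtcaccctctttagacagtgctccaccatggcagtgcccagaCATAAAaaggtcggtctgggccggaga

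The *Avp* window held CACGTG, an E-box that clock factors can bind, at base -139 from the start, and 6.02% of 32851 promoter windows of this length held it. It also held CAGGTG, read as CACCTG, at -24 (17.2% of windows). The *Oxt* window held AGGTCA at -185 and, read as TGACCT, at -166 (14.02% of windows). CATAAA stood near both RefSeq starts, at -14 in *Avp* and -27 in *Oxt* (10.8% of windows). All positions count from the RefSeq start, and the GENCODE transcripts begin farther downstream, at 130582554 for *Avp* and 130576173 for *Oxt*. TATAAA, TGACGTCA and TGACGT were not among the letters of either window. The *Avp* window had 62.4% GC and 7 CpGs and the *Oxt* window 54% and 4, against a median of 52.4% and 6.

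Depth differed among libraries. The lowest cell had 601 UMIs, library medians ran from 2663 to 7532 UMIs per cell, and 1 library of control embryo 5 held 1207 cells against at most 465 in any other. Cell barcodes repeated little among libraries, with 101 found in more than 1 library and at most 2 shared by a pair. The reads of the targeted gene checked the labels: *Eed* changed by -0.45 on the log2 scale (SE 0.08, adjusted p = 0.000449, edgeR quasi-likelihood test), although counting from the 3′ part can still count a transcript that lacks the floxed exons. Cells were sorted into 26 clusters, of which those named neuron-like from markers such as *Snap25* and *Tubb3* held 9913 cells and those of non-neural types (endothelial-, pericyte-, leptomeningeal- and microglia-like) held 827. Another 2424 cells lay in clusters left unnamed. All-Hypo denotes the 13294 cells that remained without the non-neural ones, 6839 control and 6455 *Eed-cKO*, a set rebuilt here that need not equal the set of the study.

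*Avp* was carried by few cells at very high levels. It had 29076 UMIs in all, 0.0390% of the table, and 539 cells (3.82%) held at least 1. Of these, 398 cells held a single UMI, 45 held 2, 5 held 3 or 4, and 20 held 5 to 19. The 71 cells with at least 20 UMIs, called *Avp*-high, held 28379 UMIs, or 97.6% of the transcript, with a median of 187 and up to 1889 in a single cell. In the *Avp*-high cells *Avp* made up a median of 3.19% of all UMIs of the cell and up to 10.9%.

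*Oxt* had 3269 UMIs in 124 cells (0.878%), and 81 of these cells held a single UMI. The 13 *Oxt*-high cells, by the same threshold of 20 UMIs, held 3039 UMIs, or 93.0% of the transcript, with up to 726 in a cell. The threshold sat in a sparse range for both genes. The cells just inside held 24, 27 and 34 UMIs of *Avp* and 22, 23 and 27 of *Oxt*, and those just outside held 18, 15 and 15 of *Avp* and 16, 13 and 12 of *Oxt*. Over all cells *Avp* exceeded *Oxt* 8.89 times in UMIs and 8.28 times in UMIs per kilobase of transcript.

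**Figure D1:**
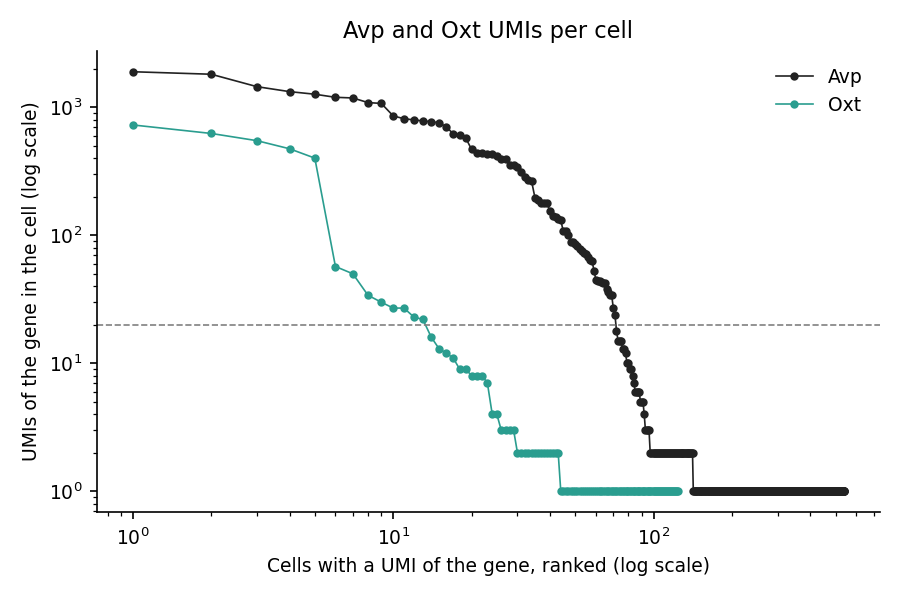
UMIs of *Avp* and of *Oxt* in each cell that held at least 1, with cells ranked from the highest (both axes on a log scale); the dashed line marks 20 UMIs. Both curves fall steeply from 1889 and 726 UMIs through the dashed line at 71 and 13 cells and end in a long run of cells with 1 UMI.

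*Avp*-high cells were found in 33 libraries of 13 embryos. Cluster 1, a neuron-like cluster of 1077 cells, held 57 of the 71, and these cells had been clustered on variable genes, so that their grouping is a description. In all, 61 *Avp*-high cells were neuron-like and 7 lay in unnamed clusters. The remaining 3 all came from control embryo 5. Of these, 2 were in the endothelial-like cluster with 415 and 313 UMIs of *Avp*. This pair held UMIs of 7 and 5 of the 8 neuron markers beside 5 and 7 of the 7 endothelial markers. The other was astrocyte-like, with 42 UMIs of *Avp* and UMIs of 7 of the 8 neuron markers. Among *Avp*-high cells 8 lay within the 6% of cells with the highest Scrublet doublet scores. The astrocyte-like cell was among them, and none of the endothelial-like pair was. Doublets were not removed. Of the 13 *Oxt*-high cells, 12 were in cluster 1, and they came from 11 libraries of 8 embryos.

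Between cell types, *Avp* was higher in neuron-like cells than in every type that could be paired within at least 6 embryos. The mean differences of *Oxt* had the same direction. For *Avp* the mean difference from astrocyte-like cells was 3.66 ± 1.95 (SD, n = 15 embryos) in log2(CPM + 10), where CPM is the usual count of a gene's UMIs scaled to one common total in every sum of cells, with the neuron-like level higher in 14 of 15 embryos (exact sign-flip permutation test, two-sided, adjusted p = 0.000977 over 10 comparisons). Against cycling progenitor-like cells it was 4.64 ± 1.33 and higher in 12 of 12 embryos (exact permutation test, adjusted p = 0.000977), and against endothelial-like cells 4.03 ± 2.63 and higher in 11 of 12 (exact permutation test, adjusted p = 0.00244). For *Oxt* the difference from astrocyte-like cells was 1.53 ± 1.43 (exact permutation test, adjusted p = 0.000977). Cycling progenitor-like and endothelial-like cells held 0 UMIs of *Oxt* in 297 and 273 cells. This allows a share of cells with a UMI of up to 1.23% and 1.34% (upper bound of the exact 95% Clopper-Pearson interval, which covers counting error only). Both bounds exceed the 0.909% of neuron-like cells below 20 UMIs that held an *Oxt* UMI. Where a type held 0 UMIs, its difference from neuron-like cells could not be negative, so that test cannot show a lower level there. In the order of the types below neuron-like, no pair of neighbours differed by the exact permutation test (lowest adjusted p = 0.484 for *Avp* and 1 for *Oxt*), and 3 types with 3 embryos each cannot pass it.

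Cells with 1 or 2 UMIs occurred in many cell types, and cells with 3 to 19 UMIs did not. All 25 cells with 3 to 19 UMIs of *Avp* were neuron-like (21) or unnamed (4), and all 16 such cells of *Oxt* were neuron-like. Among cells below 20 UMIs, *Avp* was detected in 3.21% of neuron-like cells (95% interval 2.87% to 3.57%, median depth 5155 UMIs) and in 3.27% of non-neural cells (2.17% to 4.73%, median depth 3766 UMIs), so that the share of neuron-like cells with any UMI below 20 was at the level of cells that should lack the gene. For *Oxt* it was 0.909% of neuron-like cells (0.732% to 1.12%) and 0.605% of non-neural cells (0.197% to 1.41%). Free RNA from broken cells can leave single UMIs in any droplet, and a share of cells with a UMI at the non-neural level is not read here as expression; its part in the cells of 3 to 19 UMIs was not tested.

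By library, the share of cells below 20 UMIs with an *Avp* UMI ran from 0% to 11.7% with a median of 2.58% over 48 libraries, and 4 libraries, all *Eed-cKO*, held 0 UMIs of *Avp*. The library at 11.7% belonged to control embryo 3 and held a single *Avp*-high cell, with 1321 UMIs. A library of control embryo 1 reached 5.30% with 0 *Avp*-high cells. For *Oxt* the same share ran from 0% to 3.26% with a median of 0.706%, and 8 libraries held 0 UMIs. The part of an embryo's All-Hypo *Avp* CPM that came from its high cells was set against the CPM of its cells below 20 UMIs. Both were taken as log2(CPM + 1). The part from high cells depends on their number and is not the level inside them. Across the 15 embryos Pearson's r was 0.65 (permutation p = 0.0113, adjusted p = 0.0677 over 6 relations) and Spearman's rho was 0.39 (permutation p = 0.148, adjusted p = 0.513). The 2 embryos farthest from the median were *Eed-cKO* embryos 2 and 8, which held 0 *Avp*-high cells. Without them r was 0.22, so the relation rested on those embryos. Within genotypes r was -0.36 over the 6 controls and 0.60 over the 9 *Eed-cKO* embryos (permutation p = 0.498 and p = 0.0911, adjusted p = 0.746 and 0.273). For *Oxt* r was 0.08 over all embryos (permutation p = 0.788, adjusted p = 0.923).

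The low shares moved with genotype. Non-neural cells below 20 UMIs held *Avp* in 6.09% of 345 control cells (95% interval 3.81% to 9.15%) and in 1.25% of 480 *Eed-cKO* cells (0.460% to 2.70%), with intervals that cover counting error over pooled cells only. Without control embryo 5 the control share was 3.60%, 10 of 278 cells, against 21 of 345 with it. These cells lie outside the lineage that Sox1-Cre targets. Astrocyte-like cells showed 5.86% and 1.66%, and neuron-like cells 4.68% and 1.55%. Cells of unnamed clusters stood the other way, at 3.10% in control and 4.74% in *Eed-cKO*. Their median depth differed, with 1229.5 UMIs in control and 2382 in *Eed-cKO*. So did their make-up, since the unnamed clusters 20 and 24, with 225 and 61 cells, held 0 control cells. The part of depth and make-up in the 2 shares was not tested. The order of the shares also rested on *Eed-cKO* embryo 9, without which the *Eed-cKO* share was 2.71%, 31 of 1146 cells. Without embryos 4 and 9 it was 1.05%, 10 of 949 cells. *Oxt* was found in 2 of the control and 3 of the *Eed-cKO* non-neural cells.

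**Figure D2:**
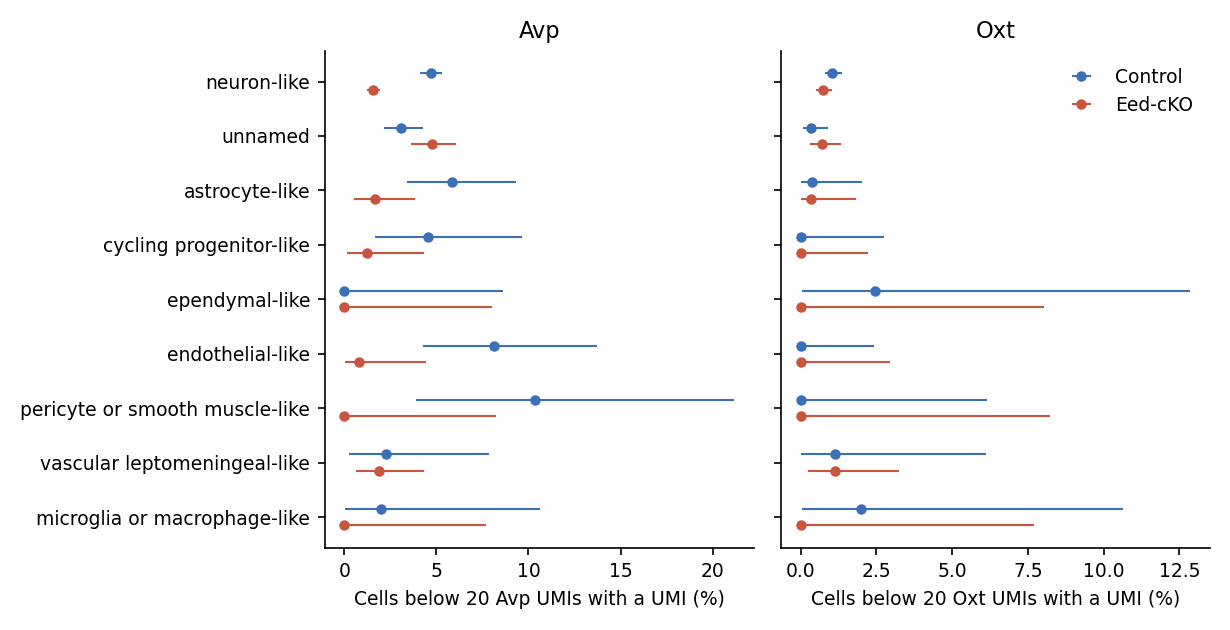
Share of cells below 20 UMIs that held at least 1 UMI of *Avp* (left) or *Oxt* (right), in percent, for each cell type and genotype, with exact 95% binomial intervals over pooled cells. For *Avp* the control point lies above the *Eed-cKO* point in every type but the unnamed cells, where it lies below, and the ependymal-like cells, where both are at 0%, and for *Oxt* all intervals of a type overlap between genotypes.

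In the sums of non-neural cells per embryo (6 control and 8 *Eed-cKO* embryos with at least 10 such cells), *Avp* was called lower in *Eed-cKO* at -7.01 on the log2 scale (SE 1.48, adjusted p = 0.0108, edgeR), in a fit where 2.82% of 12398 genes were called. This value rested on the 2 endothelial-like cells of control embryo 5: without that embryo it was -1.62 (adjusted p = 0.321), and over non-neural cells below 20 UMIs it was -2.39 (adjusted p = 0.0783). *Oxt* did not pass the filter on low counts there, with 6 UMIs in all.

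Over All-Hypo cells both transcripts were lower in *Eed-cKO* embryos. *Avp* in the control embryos stood at 168, 1225, 838, 438, 165 and 633 CPM for embryos 1 to 6. In the *Eed-cKO* embryos 1 to 9 it stood at 189, 0, 180, 413, 224, 145, 87.6, 1.23 and 151 CPM. Controls 2, 3, 4 and 6 lay above every *Eed-cKO* embryo, while controls 1 and 5 lay within their range, and *Eed-cKO* embryo 2, at 0, was also the smallest with 208 All-Hypo cells. The log2 fold change was -1.87 (SE 0.53, 3.65-fold lower, adjusted p = 0.0119, edgeR quasi-likelihood test over 12545 genes).

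*Oxt* in control embryos 1 to 6 stood at 88.4, 112, 12.5, 130, 3.70 and 121 CPM. In *Eed-cKO* embryos 1 to 9 it stood at 7.60, 3.19, 0.942, 2.94, 1.58, 17.99, 17.4, 24.6 and 3.002 CPM. Controls 1, 2, 4 and 6 lay above every *Eed-cKO* embryo, and controls 3 and 5 lay among them. The log2 fold change was -3.16 (SE 0.60, 8.91-fold lower, adjusted p = 0.000493, edgeR). In the same fit 27.7% of genes were called and 12.5% were called lower, and by log2 fold change over all genes *Oxt* ranked 2 and *Avp* 7 from the lowest.

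Both genes varied among embryos far more than most. Their dispersion, 0.837 for *Avp* and 0.675 for *Oxt*, exceeded that of 99.9% of genes, against a median of 0.0150. Exact permutation tests of log2(CPM + 1) over the 15 embryos gave a difference of -2.85 for *Avp* (p = 0.0462) and -2.81 for *Oxt* (p = 0.00999). Without the high cells the difference was no longer called for either gene, at -0.89 for *Avp* (adjusted p = 0.16, edgeR) and -0.35 for *Oxt* (adjusted p = 0.482, edgeR). Those cells were chosen by the same UMIs and held 97.6% of the *Avp* and 93.0% of the *Oxt* transcript. Leaving them out removes most of what was measured, so the lost calls do not locate the difference. DESeq2 did not call *Avp* (-1.95, adjusted p = 0.0851), and limma-voom with each library as a sample, tested against a minimum change of 0.18 on the log2 scale, did not call *Oxt* (-1.56, adjusted p = 0.30).

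The difference was then split into the number of high cells and the level in each. High cells were chosen by their own UMIs of the gene. A cell whose level falls below the threshold is lost from the number and no longer counts in the level. The split therefore depends on the threshold, and a lower number of high cells can also reflect lower levels. *Avp*-high cells made up 0.745% ± 0.463 (SD, n = 6) of All-Hypo cells in control embryos and 0.265% ± 0.264 (SD, n = 9) in *Eed-cKO*, a difference of -0.481 percentage points (exact permutation test, two-sided, p = 0.0212). Among All-Hypo cells, control embryos 1 to 6 held 2, 15, 9, 6, 5 and 12 such cells, and *Eed-cKO* embryos 1 to 9 held 2, 0, 1, 7, 2, 5, 2, 0 and 1. Control embryos 2 and 6 carried much of this: without embryo 2 the difference was -0.363 (exact permutation p = 0.0564) and without embryo 6 it was -0.393 (exact permutation p = 0.0504).

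A difference in the level of an *Avp*-high cell was not detectable with these embryos. The test read the same UMIs that chose the cells, so it covers only levels above the threshold. It cannot decide whether the level per cell differed between the genotypes. The embryo medians of *Avp* UMIs per high cell averaged 313 ± 182 (SD, n = 6) in control and 317 ± 215 (SD, n = 7) in *Eed-cKO*, and on the log2 scale the difference was -0.15 (exact permutation test over 1716 splits, p = 0.783), with SDs of 0.97 and 0.99 among embryos. With high cells set at 50 UMIs it was -0.72 (exact permutation p = 0.129). Over pooled cells, a description, the median was 272 UMIs in 51 control cells and 166 in 20 *Eed-cKO* cells. Nor did the share of *Avp*-high cells among the cells of cluster 1, at 4.94% ± 2.84 (SD, n = 6) in control and 6.26% ± 5.10 (SD, n = 9) in *Eed-cKO* (exact permutation p = 0.576). That cluster held 8 to 59 cells in an *Eed-cKO* embryo and 90 to 211 in a control embryo, so that 1 *Avp*-high cell weighed far more in *Eed-cKO*. In all it held 793 of the 6839 control and 284 of the 6455 *Eed-cKO* All-Hypo cells, so the cluster itself was smaller in *Eed-cKO*. The part of its size in the lower number of *Avp*-high cells was not tested.

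For *Oxt* the numbers of high cells were too small to separate the genotypes. They made up 0.127% ± 0.0775 (SD, n = 6) of All-Hypo cells in control embryos, and *Eed-cKO* embryos lay -0.0536 percentage points away (exact permutation p = 0.299). The highest levels are given as a description. All 5 cells above 100 UMIs of *Oxt*, which held 84.7% of the transcript, came from control embryos, and no *Eed-cKO* cell held more than 57. The 8 *Oxt*-high control cells had a median of 437 UMIs and the 5 *Eed-cKO* cells a median of 34, which is given without a test because cells are not replicates and 3 *Eed-cKO* embryos held them.

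**Figure D3:**
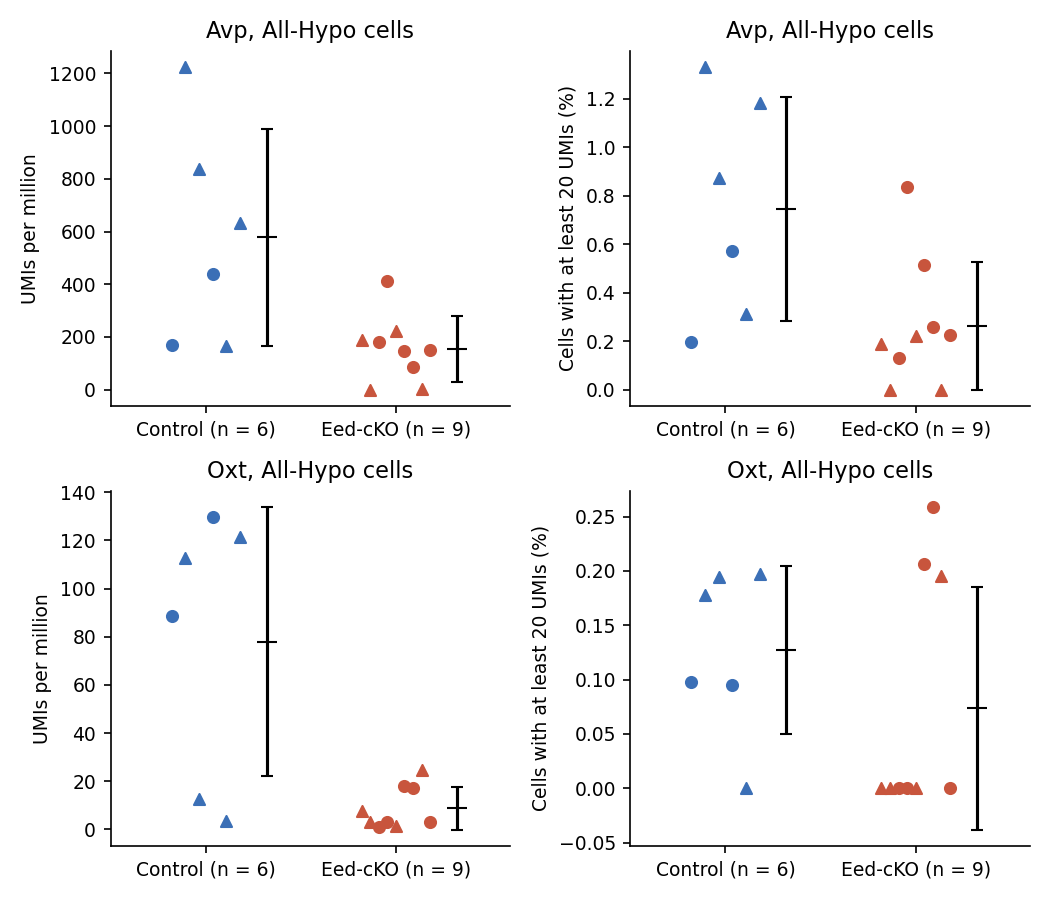
CPM (left) and percent of cells with at least 20 UMIs (right) of *Avp* (top) and *Oxt* (bottom) over All-Hypo cells, 1 point per embryo (circles female, triangles male), with black bars for the mean ± SD. For both genes 4 control embryos lie above all *Eed-cKO* embryos in CPM, while the shares of high cells overlap.

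The share of All-Hypo cells with at least 1 UMI includes free RNA. For *Avp* it was 5.003% ± 1.22 (SD, n = 6) in control and 2.45% ± 2.67 (SD, n = 9) in *Eed-cKO*, a difference of -2.56 percentage points (exact permutation p = 0.0525). It was -1.32 with cells thinned to 2000 UMIs (exact permutation p = 0.0603) and -0.569 for cells with at least 2 UMIs (exact permutation p = 0.142). In non-neural cells alone it was -5.19 percentage points (exact permutation p = 0.00539), and -2.62 without control embryo 5 (exact permutation p = 0.024). For *Oxt* the difference was -0.219 percentage points (exact permutation p = 0.322), and with every cell thinned to 2000 UMIs (1231 shallower cells of controls and 1015 of *Eed-cKO* embryos dropped) it was 0.118 (exact permutation p = 0.544).

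Sex was labelled for every embryo, with 2 females and 4 males in control and 5 females and 4 males in *Eed-cKO*. The *Avp*-high share differed between genotypes by -0.823 percentage points in males and by 0.0104 in females, and this contrast between the sexes did not pass an exact permutation test over 1890 arrangements (p = 0.0524, adjusted p = 0.122 over 6 tests). The log2 fold change of *Avp* was -2.65 in males (adjusted p = 0.039, edgeR) and -0.63 in females (adjusted p = 0.401, edgeR). The edgeR interaction term called 0 of 12545 genes, with 559 at an unadjusted p under 0.05, and gave, as males minus females, -1.999 (SE 1.12, adjusted p = 0.977) for *Avp* and 0.70 (SE 1.33, adjusted p = 0.985) for *Oxt*. For *Oxt* the log2 fold changes were -3.60 in females and -2.88 in males (adjusted p = 0.0596 in males, edgeR). Within genotypes, *Avp* averaged 8.09 in log2(CPM + 1) in control females and 9.16 in control males, and 7.42 and 4.14 in *Eed-cKO* females and males. *Oxt* averaged 6.76 and 4.94 in control females and males, and 2.68 and 2.80 in *Eed-cKO*. None of these differences between the sexes passed an exact permutation test, with p = 0.333 in control and p = 0.167 in *Eed-cKO* for *Avp*, and p = 0.333 and p = 0.897 for *Oxt*. With 15 splits of the controls the smallest possible p is 0.0667.

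Cells that held both transcripts were more numerous than independent detection over all All-Hypo cells of an embryo gives. In All-Hypo cells 39 cells held a UMI of each gene, against 5.08 if the genes were detected independently within each embryo. This number was exceeded in the 12 embryos that held such a cell, with a mean log2 ratio of 3.20 (exact sign-flip permutation test, p = 0.000488). The ratio is undefined in the other 3 embryos. At most 1.16 cells were due in an embryo, and in all but control embryo 2 a single cell sufficed to exceed the number due. The choice of these 12 embryos thus nearly fixed the sign of the ratio, and that p carries little weight. Cluster 1 held 57 of the 71 *Avp*-high and 12 of the 13 *Oxt*-high cells, and an excess within that cluster was not tested. Over all 15 embryos the excess was 2.26 ± 2.02 cells per embryo (SD, n = 15), above in 12 and below in 2 (exact permutation p = 0.000488). Without the high cells of both genes 9 cells remained against 3.02, above in 7 embryos and below in 7 (exact permutation p = 0.0256). *Avp*-high cells were deeper than others, with a median of 8286 UMIs against 5169 in neuron-like cells, and after thinning to 2000 UMIs the numbers were 18 and 1.31.

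High levels of both in 1 cell were rare. Of the 39 cells, 24 were *Avp*-high with fewer than 20 UMIs of *Oxt* (at most 9), 4 were *Oxt*-high with at most 13 UMIs of *Avp*, and 9 were high in neither. Only 2 cells passed 20 UMIs of both, 1 in each genotype, and neither held more than 27 UMIs of *Avp*. The *Avp*-high cells together held 28379 UMIs of *Avp* and 551 of *Oxt*, a ratio of 51.5. This value was carried by the 2 cells high in both, of which 1 alone held 473 UMIs of *Oxt*, and without them 28328 and 51 UMIs gave a ratio of 555. The *Oxt*-high cells held 76 of *Avp* and 3039 of *Oxt*. In cells below 20 UMIs of both genes the ratio was 3.71 among All-Hypo cells and 5 among non-neural cells (30 and 6 UMIs).

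**Figure D4:**
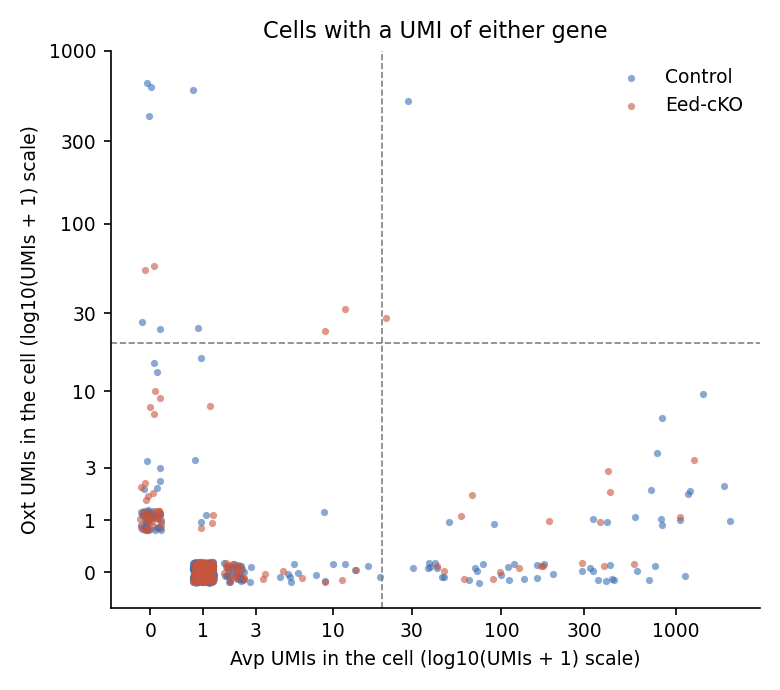
*Avp* UMIs (horizontal) against *Oxt* UMIs (vertical) in every cell that held a UMI of either gene, coloured by genotype, on a log10(UMIs + 1) scale with points spread slightly; dashed lines mark 20 UMIs. Most cells lie along the axes, 2 lie beyond both lines, and the 5 cells with the most *Oxt* are controls.

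The level of one transcript was next read in the high cells of the other. In *Avp*-high neuron-like cells of the 7 embryos with at least 3 of them (51 cells), *Oxt* had a median of 67.9 CPM, against 13.8 in the other neuron-like cells of the same embryos, and it was higher in 5 of 7 embryos. The mean difference in log2(CPM + 10) was 2.25 ± 2.78 (SD, n = 7; exact sign-flip permutation test, p = 0.0781, smallest possible 0.0156). With the *Oxt*-high cells left out on both sides it was 2.87 and reached that smallest p of 0.0156 (exact permutation test). That choice removed cells by the same *Oxt* UMIs that the test reads, so this p carries little weight. In control embryo 2 the other neuron-like cells held 738 UMIs of *Oxt*, and 1 removed cell held 726 of them. Within cluster 1 alone the difference was 0.50 (exact permutation p = 0.63). At 50 UMIs it was 1.06 (exact permutation p = 0.219). *Avp* in *Oxt*-high cells was read in the 8 embryos with at least 1 such cell (12 cells), since 0 embryos had 3. Of these cells 5 held an *Avp* UMI, and the difference was -1.57 ± 4.16 (SD, n = 8; exact permutation p = 0.344), with -2.94 at 50 UMIs (exact permutation p = 0.0938) and -3.77 within cluster 1 (exact permutation p = 0.0625).

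Other genes were compared between high and other neuron-like cells of the same embryos, with *Avp* and *Oxt* taken out of the counts. In *Avp*-high cells 554 of 11151 genes were called higher (4.97%) and 619 lower (5.55%), with a median change of -0.05 over all genes. Genes of the lineage were raised: 3 of 3 tested factors were called higher. *Pou3f2*, a POU factor needed for these neurons, rose by 2.76 (SE 0.18, 6.78-fold), from a median of 67.1 to 477 CPM, and *Sim1*, a bHLH-PAS factor of the same lineage, rose by 2.47 (SE 0.23, 5.55-fold). *Arnt2*, the partner of Sim1, rose by 0.58 (SE 0.15), and with TMM scaling it stood at 0.41 and 2 of the 3 factors were called. In 7 of 7 embryos the high cells stood above the others for *Pou3f2* and *Sim1*, and in 6 of 7 for *Arnt2* (adjusted p = 2.11e-49, 2.73e-25 and 0.0015, edgeR). The list of factors held 5 genes, of which *Otp* was absent from the deposited counts and *Sim2* did not pass the filter on low counts in this fit.

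Of 14 genes of prohormone processing and granules, 9 were called higher and 0 lower, with a median of 0.54, and with TMM scaling 6 were called higher. *Pcsk1*, the prohormone convertase that cuts precursors at paired basic residues, rose by 3.97 (SE 0.38, 15.7-fold), from a median of 8.14 to 101 CPM. *Pcsk1n*, an inhibitor of that convertase, rose by 0.93 (SE 0.10), *Vgf*, a granule protein, by 1.67 (SE 0.19), and *Scg5*, the chaperone of convertase 2, by 1.01 (SE 0.12). These 4 genes were higher in 7 of 7 embryos, with adjusted p from 3.32e-23 to 7.94e-15 (edgeR).

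All 4 tested regulators of expression and release were called higher. *Caprin2*, an RNA-binding protein known to act on the vasopressin transcript, rose by 3.25 (SE 0.32, 9.53-fold) and *Magel2* by 1.56 (SE 0.15), each in 7 of 7 embryos. *Rasd1* rose by 3.85 (SE 0.45) on 26 UMIs and *Creb3l1*, a transcription factor of the *Avp* promoter, by 2.72 (SE 0.53) on 15 UMIs, each higher in 3 of 7 embryos only. The single receptor tested, *Avpr1a*, stood at 0.98 and was not called.

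Of 6 tested genes typical of the suprachiasmatic nucleus, 4 were called lower and 0 higher. *Zfhx3* fell by 2.47 on the log2 scale (SE 0.18) in 7 of 7 embryos, from 656 to 87.0 CPM. *Lhx1* had 0 UMIs in the high cells and 28.1 CPM in the others, at least 4.66-fold lower (against a floor of 3 UMIs over all high cells). *Six3* fell by 1.08 (SE 0.26), and *Six6* was called lower on 2 UMIs in the high cells. The median of the list was -1.78, or -1.65 with *Lhx1* at its bound. The calls of *Six3* and *Six6* were not made among cells of cluster 1 alone, where *Six3* stood at 0.46 (adjusted p = 0.618, edgeR). There 7 of the genes were tested, 2 were lower and *Prok2*, a secreted peptide of that nucleus, was called higher at 3.55 (SE 0.69, adjusted p = 1.07e-05, edgeR) on 13 UMIs, in 4 embryos; it is named after its values were seen.

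Among 19 tested neuropeptide genes, 5 were called higher and 10 lower, with a median of -2.39, or -1.05 with the gene at 0 UMIs set to its bound. *Gal*, the galanin precursor, rose by 4.11 (SE 0.14, 17.3-fold), from a median of 54.9 to 904 CPM. *Npff* rose by 4.86 (SE 0.39, 29-fold) in 6 of 7 embryos. *Pdyn*, the precursor of dynorphin, rose by 2.72 (SE 0.22, 6.59-fold) in 7 of 7. *Sst*, the somatostatin precursor, fell by 2.73 (SE 0.29) in 7 of 7. *Crh*, chosen after its values were seen, rose by 3.91 (SE 0.46) but was higher in only 3 of 7 embryos, with a median of 0 CPM in the high cells.

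*Oxt*-high cells were fewer, 12 cells with 116971 UMIs in 8 embryos, and the fit called 92 genes higher (0.906%) and 84 lower (0.828%) of 10149, with a median change of -0.05. The rule of at least 3 high cells left 0 embryos, so embryos with 1 or 2 such cells were used. A count of embryos and an SE in this fit thus rest on 1 or 2 cells per embryo. *Pou3f2* rose by 2.45 (SE 0.37, 8 of 8 embryos) and *Sim1* by 2.29 (SE 0.42, 7 of 8), so that 2 of 3 lineage factors were called. Of 14 processing genes 3 were called higher and 1 lower. *Pcsk1* rose by 2.64 (SE 0.66) on 7 UMIs, *Pam*, the enzyme that amidates both hormones, by 1.62 (SE 0.45), and *Cadps2*, a priming factor of granule release, by 2.13 (SE 0.48). *Scg2*, the precursor of secretoneurin, fell by 3.46 (SE 0.45) in 8 of 8 embryos and stood at 0.37 (SE 0.13) in *Avp*-high cells; this difference between the kinds of high cell was not tested.

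Of 2 receptors, *Avpr1a*, the vasopressin receptor 1a, was called higher at 2.59 (SE 0.70, adjusted p = 0.043, edgeR) on 6 UMIs, in 3 of 8 embryos. It was not called with TMM scaling or within cluster 1 (adjusted p = 0.133, edgeR). Of 2 tested regulators 0 were called, with *Caprin2* at 0.39 and *Magel2* at 0.17. *Zfhx3* fell by 2.46 (SE 0.35) and *Six3* was called lower on 1 UMI, the 2 suprachiasmatic genes of 6 that were called, with a list median of -3.39, or -1.58 with genes at 0 UMIs at their bounds. Of 15 neuropeptides 3 were called higher and 4 lower, with a median of -2.05, or -0.25 at the bounds. *Pdyn* rose by 3.08 (SE 0.37, 8.44-fold) in 8 of 8 embryos, and *Gal* by 1.83 (SE 0.42) in 3 of 8. *Sst* and *Tac1* had 0 UMIs in *Oxt*-high cells, at least 8.07-fold and 4.62-fold lower than in the other neuron-like cells.

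**Figure D5:**
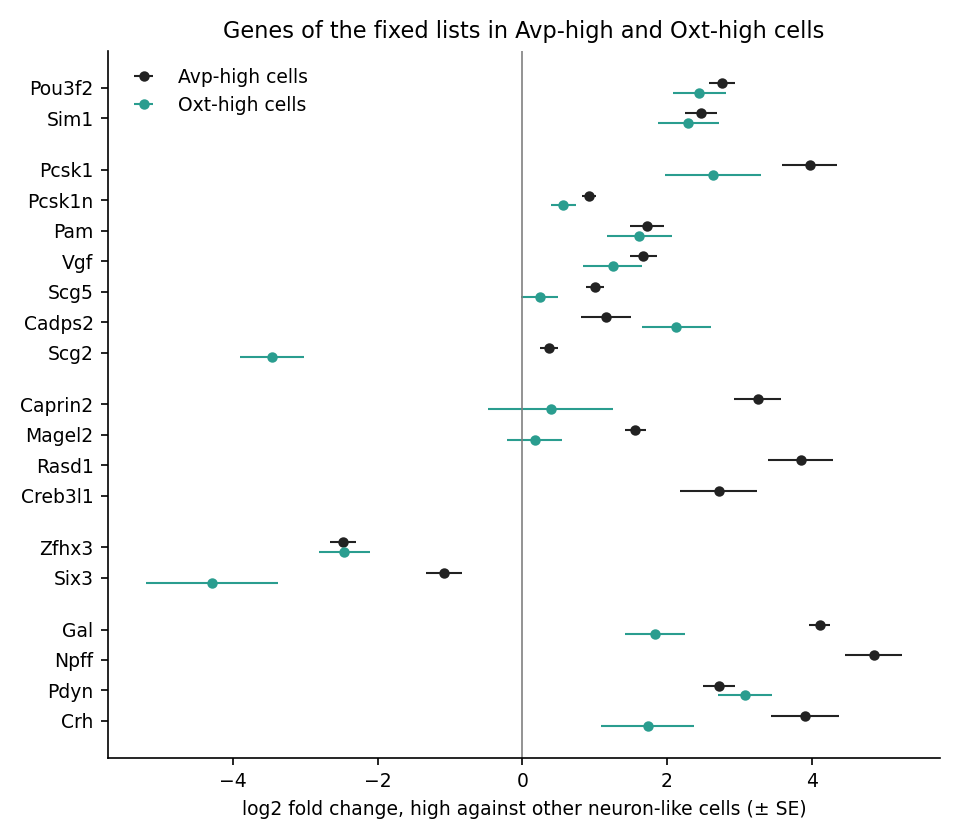
log2 fold change (points) ± SE (bars) of genes of the fixed lists in *Avp*-high cells (black) and *Oxt*-high cells (green) against other neuron-like cells of the same embryos; genes without a UMI in the high cells or not tested have no point. *Pou3f2*, *Sim1*, *Pcsk1*, *Pam* and *Pdyn* lie to the right of 0 for both, and *Zfhx3* and *Six3* to the left, where *Six3* in *Oxt*-high cells rests on 1 UMI. *Crh* was added after its values were seen.

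The comparison was repeated among the cells of cluster 1 alone, which held most high cells. There, 499 of 11982 genes were called higher in *Avp*-high cells and 593 lower. The higher ones included 3 of 4 lineage factors, 7 of 14 processing genes, 3 of 4 regulators and 5 of 22 neuropeptides, while 9 neuropeptides were lower. In *Oxt*-high cells 53 of 11857 genes were called higher and 54 lower. The higher ones included 2 of 4 lineage factors, 1 of 14 processing genes and 3 of 22 neuropeptides, while 1 processing gene and 4 neuropeptides were lower. With TMM scaling the median of all genes moved to -0.19 in *Avp*-high and -0.71 in *Oxt*-high cells, and the share of higher among called genes moved from 47.2% to 29.0% and from 52.3% to 4.59%. Of the *Oxt*-high processing genes TMM called 2 higher and 3 lower.

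The genes that followed *Avp* most closely over 5256 control neuron-like cells (Pearson's r of log-scaled UMIs, a description over cells that share libraries) were *Gsta4* at 0.39, *Fosl2* at 0.32, *Angpt1* at 0.27, *Npff* at 0.25, *Gal* at 0.24 and *Pcsk1* at 0.22. Over 4657 *Eed-cKO* neuron-like cells they stood at 0.33, 0.23, 0.20, 0.06, 0.27 and 0.15. *Gsta4*, a glutathione transferase, had UMIs in 78 control neuron-like cells, and 21 of the 42 *Avp*-high ones were among them; *Fosl2*, an AP-1 factor, had UMIs in 29 of the 42. For *Oxt* the closest were *Kctd19* at 0.20, *Ms4a7* at 0.18, *Fosl2* at 0.18, *Grhl2* at 0.18, *Myocd* at 0.18 and *Avp* at 0.16. Of these *Kctd19*, *Ms4a7*, *Grhl2* and *Myocd* were detected in 3 to 7 control cells, which is too sparse for a finding. In *Eed-cKO* cells *Fosl2* stood at 0.11 and *Avp* at 0.26.

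The same lists were read in the comparison of genotypes over All-Hypo cells, where 27.7% of all genes were called. Of 4 tested lineage factors *Arnt2* was lower at -0.37 (SE 0.07) and 0 were higher. Of 14 processing genes 6 were lower and 0 higher, among them *Scg2* at -0.61 (SE 0.07), *Cadps2* at -0.91 (SE 0.12), *Vgf* at -0.46 (SE 0.11) and *Pcsk1* at -0.68 (SE 0.19). *Avpr1a* was lower at -0.69 (SE 0.21), as the single call of 2 receptors, and *Creb3l1* was higher at 0.86 (SE 0.18), as the single call of 4 regulators.

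Of 7 suprachiasmatic genes *Six6* was higher at 0.57 (SE 0.14), while *Rorb* at -0.46 (SE 0.12) and *Vip* at -1.41 (SE 0.40), the peptide of the core of that nucleus, were lower. Of 24 neuropeptide genes, *Vip* again among them, 6 were higher and 7 lower. *Pnoc* at 0.75 (SE 0.12), *Cartpt* at 1.18 (SE 0.19) and *Npw* at 1.85 (SE 0.37) were higher, and *Grp* at -1.17 (SE 0.22) was lower. The list medians were -0.12 for lineage factors, -0.20 for processing genes and -0.16 for neuropeptides, against 0.01 over all genes.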

How the data were processed

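The authors dissociated hypothalami with papain, made 3′ libraries (SureCell kit, ddSEQ) and processed reads with SureCell software, STAR 2.5.2b and SAMtools 1.3 on mm10, per the labels and methods; the strand of counting was not given in the sources used here. The deposited table holds whole UMI counts per gene and cell, already filtered on UMIs. The members and lists were chosen with earlier results of these data known, and the embryos are the replicates. UMIs were summed per embryo. Genes passed with at least 15 UMIs, 2 in the highest embryo and a median log2 CPM of 1.5. edgeR 4.0.16 (TMM, R 4.3.3) tested genotype; high cells were tested with the embryo as a block and library sizes alone, because TMM shifted simulated counts there. DESeq2 1.42.0, limma 3.58.1, exact permutations, a threshold of 50 UMIs, thinning and left-out embryos were alternatives. Clusters came from scanpy 1.11.5 (2000 variable genes, 30 components) and were named from fixed markers. Named genes were, per list, the 4 called with the smallest adjusted p, and the 6 genes most correlated with each member. Mature transcripts came from GENCODE and promoters from RefSeq, which held both genes. Adjusted p are Benjamini-Hochberg. Library totals ranged from 576432 to 4513505 UMIs. The labels do not say which embryos share a litter. The p-values over embryos measure the spread among these embryos. Tests with each library as a sample count libraries of 1 embryo as replicates, although they are not separate animals.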

Additional observations from a re-analysis of the deposited data

Results flagged for a closer look

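Of 28 groups of embryo values examined with Dixon's criterion, 5 held an embryo that stood apart from the rest. The criterion's rate of about 1 in 20 groups holds for normally spread values, and some groups were shares at 0% or 100% in most embryos. The groups also share the same embryos, so 5 of 28 cannot be set against that rate. In control embryo 5 the top 1% of cells held 91.8% of the *Avp* UMIs and 18.8% of non-neural cells held an *Avp* UMI, the lowest and the highest of the 6 controls; this embryo also held the library of 1207 cells and the 2 endothelial-like *Avp*-high cells. In *Eed-cKO* embryo 9 the top 1% of cells held 89.1% of the *Avp* UMIs and 66.7% of the *Oxt* UMIs, the latter on 6 UMIs in all. In *Eed-cKO* embryo 4 *Oxt* was found in 3.45% of non-neural cells, the highest of the 9. Their part in the results was not tested beyond leaving out each embryo.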

How the results depend on the processing

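Of 334 recomputed values, 298 kept their direction and their side of the threshold or, for counts, stayed within 1.5 times. The log2 fold changes of *Avp* and *Oxt* over All-Hypo cells stayed called without each embryo in turn (-2.21 to -1.52 and -3.42 to -2.95). *Avp* was not called by DESeq2 (-1.95), without *Avp*-high cells (-0.89) or in females alone (-0.63), and *Oxt* was not called by limma-voom over libraries (-1.56), without *Oxt*-high cells (-0.35) or in males alone (-2.88); the cause was not tested, beyond fewer embryos or cells by construction. The 3478 genes called became 5873 over libraries, 1820 in neuron-like cells, 1368 in females and 1355 in males.

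The *Avp*-high share difference ran from -0.591 to -0.363 without each embryo, was -0.437 over embryos of at least 500 cells (exact permutation p = 0.0594) and 0.0104 in females. The share with an *Avp* UMI ran from -3.15 to -2.25. It passed its test in neuron-like cells (-3.71), in non-neural cells (-5.19) and without control embryo 1, *Eed-cKO* embryo 4 or 9 (exact permutation p = 0.035, 0.018 and 0.0113). It also passed over libraries (-2.73), where libraries of 1 embryo are not separate animals. It was -1.32 after thinning and -0.569 at 2 UMIs. In non-neural cells it ran from -6.39 to -2.62 without each embryo, the latter without control embryo 5. That of *Oxt* was 0.118 after thinning. *Avp* UMIs per high cell ran from -0.43 to 0.12 without each embryo and differed by -0.72 at 50 UMIs. The *Oxt*-high share of cluster 1 ran from -0.111 to 0.782, and was -0.12 at 50 UMIs. In non-neural cells *Avp* ran from -7.46 to -1.62, with -2.39 below 20 UMIs, and *Oxt*, without the gene filter, from -0.82 to 0.83.

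*Oxt* in *Avp*-high cells was 2.87 without *Oxt*-high cells, 1.06 at 50 UMIs and 1.26 in log2(CPM + 100). *Avp* in *Oxt*-high cells was 0.70 without *Avp*-high cells, -2.94 at 50 UMIs, -3.77 within cluster 1 and -0.49 in log2(CPM + 100). Genes raised in *Avp*-high cells numbered 360 with TMM, and in *Oxt*-high cells 45 with TMM, 58 at 50 UMIs, 46 in controls and 53 in cluster 1. Library size alone, planned as an alternative there, was used throughout instead. Several alternatives were chosen after seeing the data: embryos of at least 500 cells, single sexes, cluster 1, the non-neural share without each embryo, and co-detection over all embryos. No paired analysis was possible because no embryo holds both genotypes and the labels pair no embryos across them. With 13 *Oxt*-high cells, small differences in their number cannot be detected.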
